A study of Rattus norvegicus with 17 samples.

Results

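DN livers came from male rats whose mothers were kept short of choline through pregnancy and were returned to adequate choline for lactation. They were compared with NN livers, whose mothers had adequate choline in both periods. The titles of the samples gave the groups, 5 DN and 4 NN arrays out of 17 in all, with 1 array per liver. Differences are DN minus NN throughout, on the log2 scale, for the 12912 of 14557 genes that carried a probe set of 1 symbol and were bright enough to test.

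All the rats were Wistar and were killed at 24 days of age, with 1 male taken from each litter. Every mother, those of NN pups included, had first eaten a choline-deficient AIN-93 M diet for 16 weeks to give her a fatty liver, and was mated with a healthy male on standard AIN-93 M diet. In DN the deficient diet went on until delivery and standard AIN-93 G diet, with proper choline, followed until the pups were killed. In NN the standard AIN-93 G diet began with pregnancy and continued. DD mothers stayed on the deficient diet in both periods and ND mothers met it again only in lactation, with 4 arrays each. No group of pups from mothers that were never deficient is among the samples, so the NN pups too had mothers with a fatty liver. Pups of separate litters are separate samples. The p-values rest on the spread between livers within groups, in which differences between litters, pups and arrays cannot be told apart.

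Choline is the head group of phosphatidylcholine, the main phospholipid of membranes and of the lipoproteins that carry fat out of the liver. Oxidised to betaine, it also gives a methyl group that turns homocysteine back into methionine. Methionine adenosyltransferases make S-adenosylmethionine from methionine, and the liver uses that methyl donor to methylate DNA, histones, RNA and phosphatidylethanolamine. Serine and folate feed methyl groups into the same cycle. A shortage of choline in the diet is a classical way to give rats a fatty liver.

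The values were liver-like in all 17 arrays. The 7 measured hepatocyte markers had mean levels of 9.85 to 11.69 on the log2 scale, although 1 label field names a prostate cell line, whose 2 measured marker genes had means of 1.58 and 2.19. Correlations between arrays ran between 0.920 and 0.979. The NN arrays were not alike. NN replicate 2 had a spread (the SD over all probe sets) of 1.785, against 1.656 to 1.684 in the other NN arrays, and lay within the DN range of 1.718 to 1.788. Its first principal component score was 35.9, where the other NN arrays had -8.66, -44.6 and -32.6 and the DN arrays lay between -1.35 and 47.1. With all arrays, spread averaged 1.75 ± 0.029 in DN and 1.70 ± 0.057 in NN (SD, n = 5 and 4; exact permutation test, 2-sided, p = 0.175, adjusted over 4 array measures 0.233). Without NN replicate 2 the NN mean was 1.67 ± 0.015 (n = 3), below all 5 DN arrays. The exact permutation p was then 0.0357 (adjusted 0.0476), the smallest unadjusted p that 5 against 3 can give. Leaving out the only NN array within the DN range fixed that p in advance, so no conclusion is drawn from it. Because NN replicate 2 lay apart from the other NN arrays, the main results are given with and without it. Array spread is used as a covariate where that matters. Spread is computed from the same values and averaged higher in DN, so the covariate can also take up part of a diet difference. The part that array spread plays in a gene's difference was not tested beyond that covariate.

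**Figure D1:**
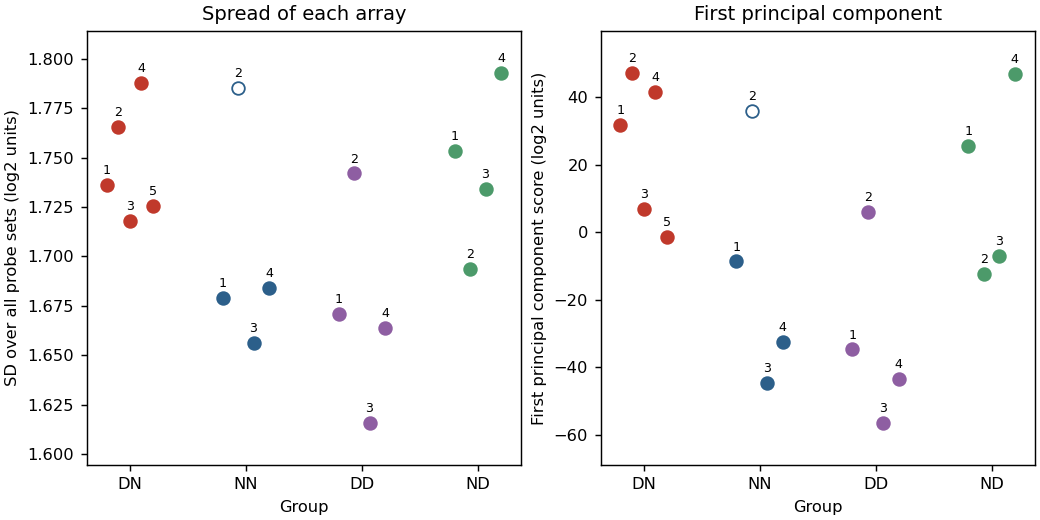
Spread of each array over all probe sets (left, SD in log2 units) and score on the first principal component, which holds 24.8% of the variance (right), for each liver in DN, NN, DD and ND; numbers beside the circles are replicate numbers and the open circle is NN replicate 2. NN replicate 2, with a spread of 1.785 and a score of 35.9, sits among the DN arrays, while the other 3 NN arrays lie below every DN array on both measures.

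No gene was called between DN and NN livers at a Benjamini-Hochberg adjusted p under 0.05 (limma, 0 of 12912, 0.0%), and the smallest adjusted p was 0.275. The unadjusted p was under 0.05 for 1732 genes (13.4%), where 646 would be reached by genes without a difference that vary independently. Of the 1732, 876 were higher in DN (6.78%) and 856 lower (6.63%); after each array was centred on its median the split was 1091 higher and 497 lower, so the balance of directions depends on the scaling. Over all tested genes the median difference was -0.03, and 44.5% of the differences were positive; with centring the median was 0.03. Brighter genes, whose mean reached the median of all values (2.58), had 826 higher and 563 lower at unadjusted p under 0.05. Dimmer genes had 50 higher and 293 lower. With array spread as a covariate, 399 genes were higher and 533 lower. Counts within the gene lists below use the same unadjusted p and are read against these counts over all genes. The lists were chosen with earlier results of these data known, and several hold leading genes. Their counts and shares are therefore descriptions, not tests. The median SE of a difference was 0.164.

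Leaving out NN replicate 2 was the only removal of a single array, of the 17 tried, that gave calls. Then 18 genes were called (0.139%), 10 higher in DN (0.0774%) and 8 lower (0.062%), and the unadjusted p was under 0.05 for 2691 (20.8%), of which 1381 lay higher (10.7%) and 1310 lower (10.1%). The DN livers lay wholly above the other 3 NN livers in 799 genes (6.19%) and wholly below them in 1020 (7.9%). With array spread as a covariate as well, limma called 0 genes and the smallest adjusted p was 0.342. There 384 higher and 644 lower genes had an unadjusted p under 0.05. Without NN replicate 2 every DN array had a larger spread than every NN array, so that covariate and the diet cannot be told apart. No conclusion is drawn from the loss of calls. With the quantile normalization repeated without NN replicate 2, 19 genes were called, 16 of them among the 18. In 1266 of the 1732 genes (73.1%), NN replicate 2 was the highest NN array where DN was higher, or the lowest where DN was lower. Removing NN replicate 4 or DN replicate 4 had the opposite effect on the counts, which came to 429 higher and 476 lower, and to 550 higher and 562 lower. The genes named below are therefore candidates ordered by p, not calls from all arrays.

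**Figure D2:**
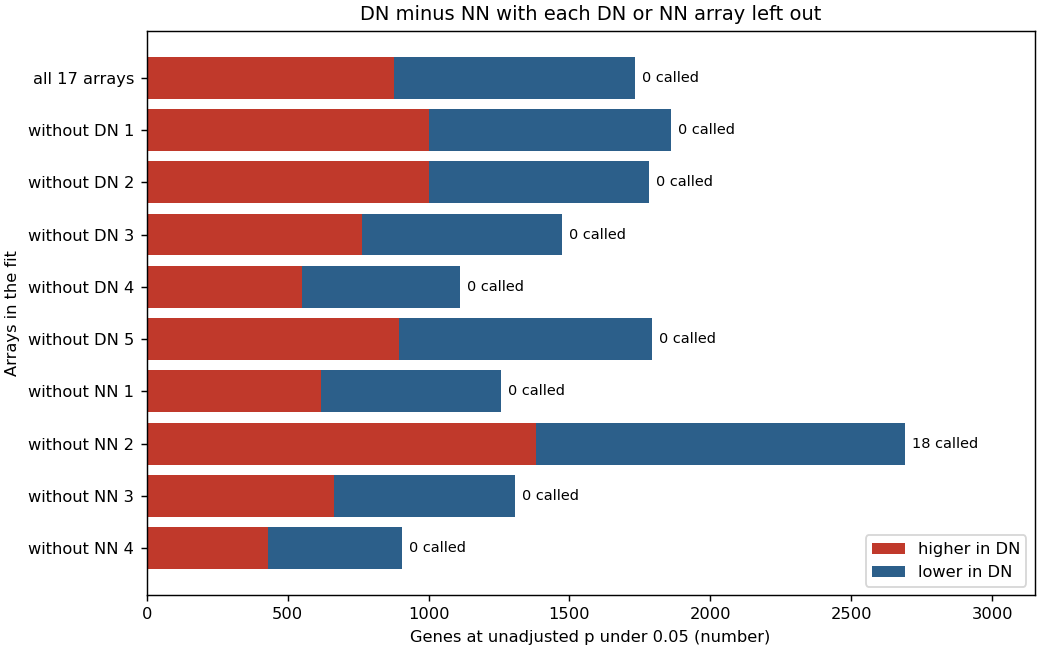
Number of genes with an unadjusted p under 0.05 for DN minus NN (limma), higher in DN in red and lower in blue, with all 17 arrays and with each DN or NN array left out; the text at the end of a bar gives the genes called at an adjusted p under 0.05. Only the fit without NN replicate 2 calls genes, 18 in all, and it has the longest bar, 1381 higher and 1310 lower.

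At the head of the lower side stood Mat2a, the catalytic subunit of the methionine adenosyltransferase that most tissues outside the liver use and that the liver keeps at a lower level than Mat1a. Mat2a had log2 levels of 5.74, 6.22, 6.09, 5.69 and 5.85 in DN livers, against 7.21, 6.34, 6.70 and 6.99 in NN livers. All 5 DN livers lay below all 4 NN livers, and the nearest NN liver was replicate 2. The means were 5.92 ± 0.23 in DN and 6.81 ± 0.38 in NN (SD), a difference of -0.89 ± 0.186 (SE), with an adjusted p of 0.275 in limma. Without NN replicate 2 the difference was -1.05 ± 0.184 and passed the test (limma adjusted p = 0.0417). With array spread as a covariate it was -0.89, and over the removals of single arrays it stayed between -1.05 and -0.76.

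The promoter of Mat2a is shown with those of Cebpb, Junb and Gadd45b, 3 stress-responsive genes whose differences were also negative, because they are the regulatory sequences behind the transcripts described here. The windows run from 250 bases before to 50 bases after the annotated start in the RefSeq annotation of GRCr8, read 5′ to 3′ on the gene's strand. Mat2a lies at chr4:106053563-106053862 on the minus strand, Cebpb at chr3:176816755-176817054 on the plus strand, Junb at chr19:40080876-40081175 on the plus strand and Gadd45b at chr7:9430669-9430968 on the minus strand. Capitals mark matches, on either strand, to TATAAA (the TATA box), GGGCGG (the GC box of Sp1-family factors) and TGACG (the core of a cAMP response element).
Mat2a: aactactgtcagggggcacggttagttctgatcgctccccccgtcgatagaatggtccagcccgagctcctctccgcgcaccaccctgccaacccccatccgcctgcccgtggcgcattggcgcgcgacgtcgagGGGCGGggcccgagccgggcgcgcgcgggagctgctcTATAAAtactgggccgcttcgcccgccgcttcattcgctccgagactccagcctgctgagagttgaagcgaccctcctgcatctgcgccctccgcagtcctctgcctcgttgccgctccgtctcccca
Cebpb: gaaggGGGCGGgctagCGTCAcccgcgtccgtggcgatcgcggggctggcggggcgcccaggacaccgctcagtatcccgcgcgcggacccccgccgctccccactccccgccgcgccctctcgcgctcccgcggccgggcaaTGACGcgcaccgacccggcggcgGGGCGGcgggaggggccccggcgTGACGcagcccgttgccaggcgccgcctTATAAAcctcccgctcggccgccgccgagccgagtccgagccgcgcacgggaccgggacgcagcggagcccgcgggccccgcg
Junb: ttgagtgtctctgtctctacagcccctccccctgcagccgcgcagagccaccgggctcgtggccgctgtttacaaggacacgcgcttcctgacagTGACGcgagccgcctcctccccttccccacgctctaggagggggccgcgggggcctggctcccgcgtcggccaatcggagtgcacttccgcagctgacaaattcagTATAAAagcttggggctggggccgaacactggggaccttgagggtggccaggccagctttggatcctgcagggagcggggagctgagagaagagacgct
Gadd45b: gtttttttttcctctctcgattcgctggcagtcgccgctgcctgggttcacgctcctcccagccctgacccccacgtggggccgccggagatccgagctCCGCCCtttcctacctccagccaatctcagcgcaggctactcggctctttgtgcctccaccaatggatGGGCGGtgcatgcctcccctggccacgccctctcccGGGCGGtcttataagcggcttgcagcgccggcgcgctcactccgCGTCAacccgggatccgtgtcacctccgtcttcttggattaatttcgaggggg
The Mat2a window held 1 TATAAA and 1 GGGCGG. Cebpb held 1 TATAAA, 2 GGGCGG and 3 TGACG, Junb 1 TATAAA and 1 TGACG, and Gadd45b 3 GGGCGG and 1 TGACG, with no match overlapping another. Among 33469 promoter windows of the same length, 14.2% held TATAAA, 33.1% GGGCGG and 21.2% TGACG. A match only says that the letters are there.

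The other genes of the methionine cycle mostly lay the other way from Mat2a. Mat1a, the methionine adenosyltransferase of hepatocytes, had 9.81, 10.23, 9.85, 9.90 and 9.47 in DN livers and 9.61, 9.74, 9.43 and 9.41 in NN livers. Every DN liver except replicate 5 was above every NN liver. The difference was 0.30 ± 0.136 (SE; limma unadjusted p = 0.0381, adjusted 0.358). Mat2b, the regulatory subunit that pairs with the Mat2a protein, had 4.30, 4.03, 4.96, 4.97 and 4.71 in DN and 3.53, 4.32, 4.08 and 3.52 in NN. Its groups overlapped, NN replicates 2 and 3 reaching the lower DN livers, with a difference of 0.73 ± 0.241 (limma adjusted p = 0.281) and 0.88 without that array. Cth, which makes cysteine in transsulfuration, had 9.68, 9.56, 9.42, 9.38 and 9.32 in DN and 9.44, 9.26, 8.88 and 8.46 in NN, a difference of 0.46 ± 0.175. The NN livers spread more widely than the DN livers for this gene. Amd1, whose enzyme decarboxylates S-adenosylmethionine for polyamine synthesis, differed by 0.53 ± 0.207 (limma unadjusted p = 0.0192).

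Enzymes that carry choline's methyl groups to homocysteine had differences of less than 1 SE. Bhmt, which uses betaine to remethylate homocysteine, had 10.08, 9.17, 8.83, 9.14 and 9.71 in DN livers, against 9.61, 9.14, 9.59 and 9.21 in NN livers, and the means were 9.39 ± 0.50 in DN and 9.39 ± 0.25 in NN (SD). Its SE of 0.266 leaves room for a difference of that order in either direction. Chdh, the choline dehydrogenase that starts betaine synthesis, differed by -0.11 ± 0.266, Gnmt, which uses up excess S-adenosylmethionine, by 0.05 ± 0.352, and Cbs, the first step of transsulfuration, by 0.13 ± 0.218 (SE). Their signs turned under some settings. Of 19 tested genes on choline oxidation and the methionine cycle, 4 were higher and 1 lower at unadjusted p under 0.05 (26.3%, against 13.4% of all genes), 14 differences were positive, and the median was 0.13, against -0.03 over all genes tested and 0.01 over the brighter ones. That median was 0.19 without NN replicate 2 and 0.04 with array spread as a covariate, where 1 gene was higher and 2 lower.

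**Figure D3:**
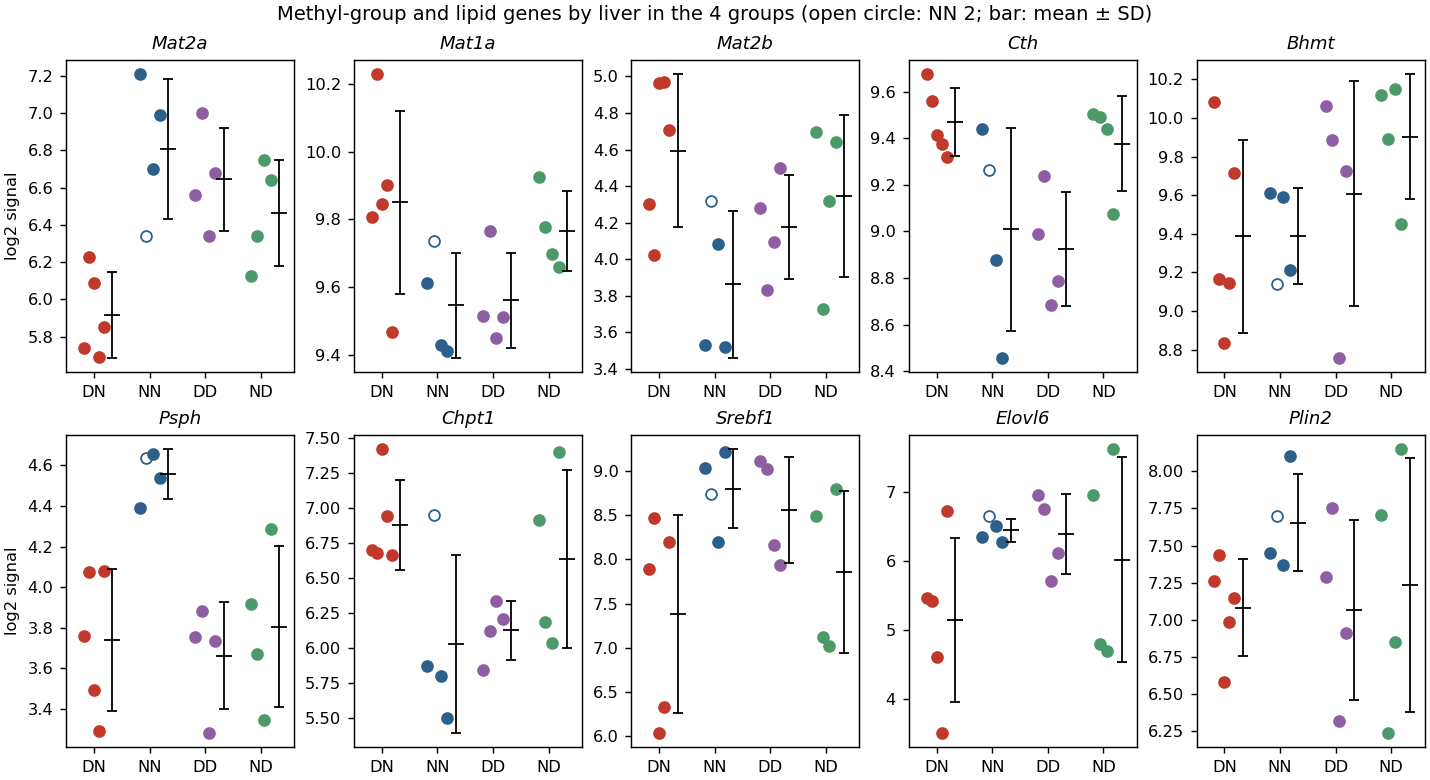
Log2 signal of 10 genes of methyl-group and lipid metabolism in each liver of the DN, NN, DD and ND groups, with the mean and SD as a bar beside the points and NN replicate 2 as an open circle. Mat2a is lower in all 5 DN livers (5.69 to 6.22) than in the 4 NN livers (6.34 to 7.21), while Bhmt overlaps fully and Srebf1, Elovl6 and Plin2 vary widely within groups.

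Serine synthesis held 1 of the leading lower genes. Psph, the phosphatase of the last step of serine synthesis, had 3.76, 4.08, 3.50, 3.29 and 4.08 in DN livers and 4.39, 4.64, 4.66 and 4.54 in NN livers. All DN livers lay below all NN livers, and here NN replicate 2 was among the higher NN arrays. The difference was -0.82 ± 0.193 (SE; limma adjusted p = 0.275), and it was -0.79 ± 0.216 without NN replicate 2 (limma adjusted p = 0.081) and -0.93 with array spread as a covariate. Among folate enzymes, Tyms, the thymidylate synthase, differed by 0.45, and Mthfd1l, a mitochondrial formate producer, by -0.31. Dld, the shared dehydrogenase subunit of the glycine cleavage and 2-oxoacid complexes, differed by 0.65. Of 18 tested genes of this list 2 were higher and 3 lower at unadjusted p under 0.05 (27.8%, against 13.4% of all genes), and 0 higher and 1 lower with array spread as a covariate. The median was 0.08, but -0.06 with array spread as a covariate and -0.05 after repeated quantile normalization.

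Phosphatidylcholine synthesis showed 1 gene in each direction at unadjusted p under 0.05, of 16 tested (12.5%, close to the 13.4% of all genes). Chpt1, which joins activated choline to diacylglycerol, had 6.71, 6.68, 7.42, 6.95 and 6.67 in DN livers, against 5.87, 6.96, 5.80 and 5.50 in NN livers, a difference of 0.85 ± 0.287 (limma unadjusted p = 0.00838). NN replicate 2 was above 4 of the 5 DN livers, and the other NN livers were all lower than DN. Slc44a5, a choline transporter-like protein, lay near the lower limit of the test, with 1.86, 1.91, 1.66, 1.64 and 1.69 in DN and 2.33, 1.72, 2.12 and 2.29 in NN. Pcyt1a, the rate-limiting transferase of CDP-choline synthesis, differed by -0.06 ± 0.15, and Pemt, which makes phosphatidylcholine by 3 methylations of phosphatidylethanolamine, by -0.11 ± 0.183. The list's median of -0.03 was at the level of all genes, and it was positive (0.01 and 0.03) after repeated quantile normalization and after median centring. With median centring the median of all tested genes was 0.03 as well.

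None of 10 tested genes of DNA methylation reached an unadjusted p under 0.05. Dnmt3b, a de novo methyltransferase, differed by 0.05 ± 0.136, Tet1, which oxidises methylcytosine, by 0.20 and Zbtb38, a reader of methylated DNA, by 0.38. Methyltransferases of RNA and protein had 2 genes higher and 1 lower of 23 tested. The lower one was Ntmt1, which methylates the amino-terminal end of proteins. Its levels were 3.61, 3.53, 3.73, 3.57 and 3.59 in DN livers and 4.0, 4.13, 4.40 and 4.09 in NN livers. The groups did not overlap, NN replicate 2 was not the nearest NN array, and the difference of -0.55 ± 0.125 was -0.55 without that array and -0.54 with array spread as a covariate (limma adjusted p = 0.275 with all arrays). Ythdc1, a nuclear reader of methylated adenosine in RNA, differed by 0.72.

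Among the 12 leading genes on the higher side, 9 had all DN livers above all NN livers, as had 145 of all tested genes (1.12%). Since these genes were ordered by the same values, that share is a description. Cnot6l, a catalytic deadenylase of the CCR4-NOT complex that shortens the poly(A) tails of mRNA, stood first. It had 5.91, 6.18, 6.34, 6.61 and 6.01 in DN livers, against 5.16, 5.82, 5.02 and 5.04 in NN livers. The DN livers were all higher, with NN replicate 2 only a little below them. The difference was 0.95 ± 0.176 (SE; limma adjusted p = 0.275), 1.13 ± 0.16 without NN replicate 2 (limma adjusted p = 0.0159) and 0.77 with array spread as a covariate.

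Other genes of mRNA deadenylation lay mostly on the same side. Pum2, an RNA-binding repressor, had 5.32, 5.56, 5.55, 5.76 and 5.16 in DN and 4.56, 5.26, 4.61 and 4.39 in NN, and Cnot9, a scaffold of the same complex, differed by 0.48 ± 0.154. Zfp36l2, which brings CCR4-NOT to AU-rich mRNA, lay the other way. It had 5.39, 5.18, 4.99, 4.95 and 4.97 in DN and 5.49, 5.40, 5.55 and 5.61 in NN, with all DN livers below all NN livers and a difference of -0.42 ± 0.117. Over the 20 tested genes, 17 differences were positive (85.0%, against 44.5% of all genes), 6 genes were higher and 1 lower at unadjusted p under 0.05 (35.0%, against 13.4% of all genes), and the median was 0.29. Cnot6l, the first of the leading higher genes, is counted among them, so these shares are a description. The median was 0.43 without NN replicate 2 and 0.08 with array spread as a covariate, where 4 genes were higher and 1 lower.

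Membrane traffic and autophagy genes had 10 higher members at unadjusted p under 0.05 with all arrays, and 5 with array spread as a covariate. Phaf1, a factor of phagosome assembly in autophagy, had 5.03, 5.35, 5.38, 5.51 and 4.92 in DN livers and 4.48, 4.83, 4.05 and 4.30 in NN livers. The groups did not overlap, and the difference of 0.82 ± 0.165 was 0.96 ± 0.163 without NN replicate 2 (limma adjusted p = 0.0314). Rab30, a small GTPase of the Golgi, had 4.42, 3.83, 4.31, 5.61 and 3.92 in DN and 3.33, 3.27, 2.94 and 2.55 in NN. DN replicate 4 was far above the other DN livers, all of which were still above NN, with a difference of 1.40 ± 0.295 over a range of 1.10 to 1.54 when single arrays were left out. Rb1cc1, a subunit of the kinase complex that starts autophagy, differed by 1.19 ± 0.329, and Lamp2, a lysosomal membrane protein, had 8.14, 8.09, 8.18, 8.22 and 7.46 in DN and 7.02, 7.88, 6.92 and 6.40 in NN. Of 28 tested genes, 10 were higher and 0 lower at unadjusted p under 0.05 (35.7%, against 13.4% of all genes), and 24 differences were positive. The leading genes Phaf1 and Rab30 are counted among them, so that share is a description too. The median of 0.17 was 0.25 without NN replicate 2, 0.10 with array spread as a covariate and 0.06 after repeated quantile normalization.

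The nuclear lamina list held genes from both ends of the order. Zmpste24, the protease that matures prelamin A, had 5.54, 5.32, 5.43, 5.79 and 5.35 in DN livers and 4.83, 5.04, 4.39 and 4.46 in NN livers, with no overlap and a difference of 0.81 ± 0.167 (0.93 without NN replicate 2, limma adjusted p = 0.0466). Fnta, the farnesyltransferase subunit that acts before it on the same protein, differed by 0.66 ± 0.187. Lmnb2, the gene of lamin B2, had 3.05, 2.88, 2.46, 2.75 and 3.57 in DN and 3.91, 3.32, 3.80 and 4.06 in NN, where DN replicate 5 overlapped NN replicate 2, and a difference of -0.83 ± 0.206. In all, 7 of the 9 tested had negative differences.

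**Figure D4:**
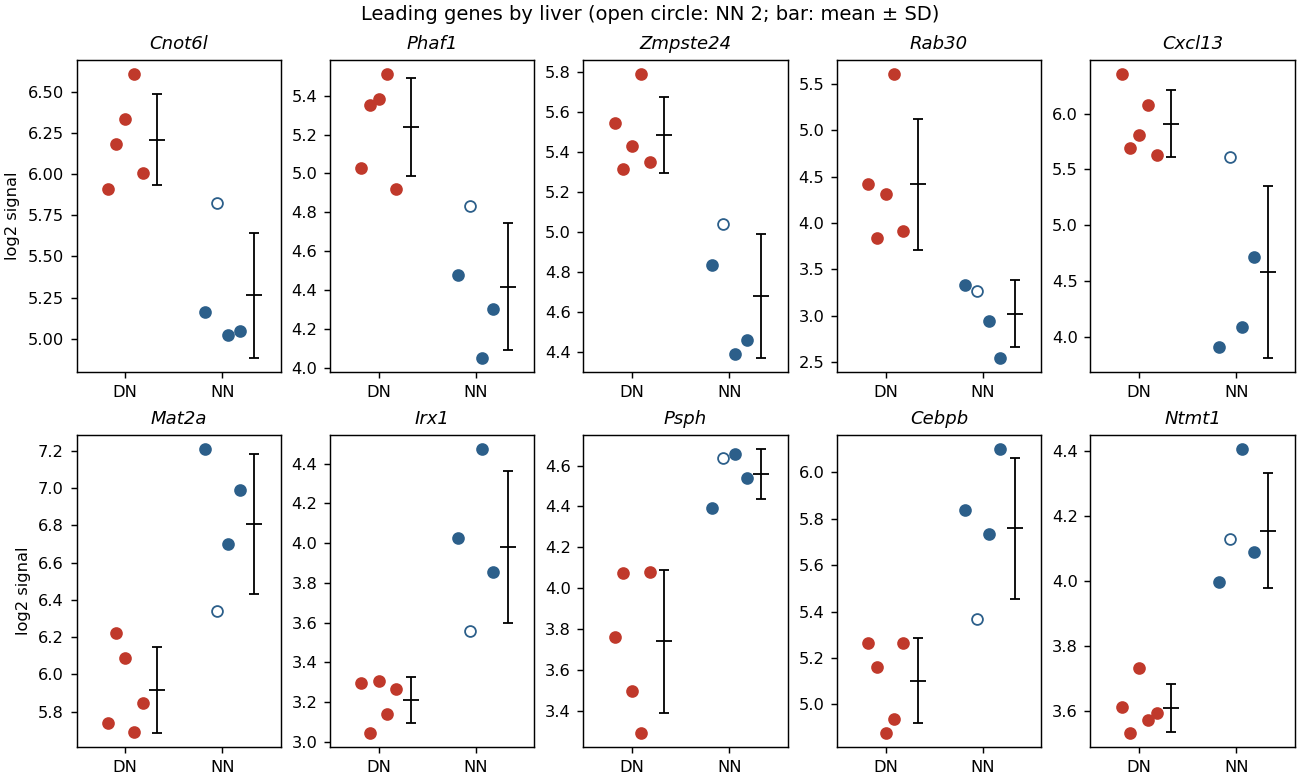
Log2 signal of 5 leading genes on the higher side (top) and 5 on the lower side (bottom) in each DN and NN liver, with mean and SD as a bar and NN replicate 2 as an open circle. In Cnot6l, Cxcl13, Mat2a, Irx1 and Cebpb the open circle lies between the DN points and the other NN points, while in Psph and Ntmt1 it lies among the NN points.

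The rest of the leading higher genes were of several kinds. Cxcl13, a chemokine that attracts B cells, had 6.35, 5.69, 5.81, 6.08 and 5.62 in DN livers, against 3.92, 5.61, 4.09 and 4.72 in NN livers. NN replicate 2 was just below the lowest DN liver and well above the other NN livers, and the difference was 1.32 ± 0.304 with it and 1.67 ± 0.266 without it (limma adjusted p = 0.0176). Serinc1, a membrane protein of the serine incorporator family, showed the same arrangement, with 6.31, 6.43, 6.57, 6.55 and 6.43 in DN and 5.63, 6.31, 5.32 and 4.74 in NN and a difference of 0.96 ± 0.219, or 1.23 without NN replicate 2 (limma adjusted p = 0.0159). Marchf2, a membrane-bound ubiquitin ligase, had 5.89, 5.67, 5.75, 5.92 and 5.63 in DN and 5.21, 5.20, 4.81 and 5.03 in NN, with NN replicate 2 inside the NN range and a difference of 0.71 ± 0.14. Jam2, a junctional adhesion molecule, differed by 1.23 ± 0.285, Trpm7, a magnesium-conducting channel with a kinase domain, by 1.10 ± 0.258, and Peli1, a ubiquitin ligase of innate immune signalling, by 0.76 ± 0.183. F13b, the carrier subunit of plasma factor XIII, differed by 0.95 ± 0.209 and Slc35f5, a solute carrier of the nucleotide sugar transporter family, by 0.54 ± 0.129. In a bulk tissue sample, fewer cells of a type and less RNA per cell cannot be told apart.

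The lower side held, beside Mat2a, Psph, Ntmt1 and Lmnb2, genes of several kinds, and 9 of the 12 had a mean at or above the median of all values (2.58). Cebpb, a transcription factor of the hepatocyte's acute phase and gluconeogenic programmes, had 5.26, 5.16, 4.88, 4.94 and 5.26 in DN livers, against 5.84, 5.37, 5.73 and 6.10 in NN livers. The groups were apart, and the difference was -0.66 ± 0.157 (SE), or -0.79 ± 0.155 without NN replicate 2 (limma adjusted p = 0.0536). Irx1, an Iroquois homeobox factor, had 3.30, 3.05, 3.31, 3.14 and 3.27 in DN and 4.03, 3.56, 4.47 and 3.86 in NN, also apart, with a difference of -0.77 ± 0.167 and -0.91 without NN replicate 2 (limma adjusted p = 0.0466). Chpf, which helps polymerise chondroitin, had 2.41, 2.29, 2.36, 2.07 and 2.31 in DN and 3.01, 2.62, 2.89 and 2.94 in NN, and B3galt4, a galactosyltransferase of ganglioside synthesis, differed by -0.51 ± 0.123. Rem2, a small GTPase that inhibits calcium channels, differed by -0.61 ± 0.13, and Kcns2, a modifying potassium channel subunit, by -0.60 ± 0.149. Kcns2 lay near the bottom of the measured range, at a mean of 1.77 in DN and 2.37 in NN. C2cd4d differed by -0.63 ± 0.147 and Dlg5l17 by -1.07 ± 0.261. Of the 12 leading lower genes, 10 had all DN livers below all NN livers, as had 248 of all tested genes (1.92%).

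Of the 18 genes called without NN replicate 2, 8 were among the 24 leading genes with all arrays. With that array in, 7 of the 18 did not overlap, as did 393 of all tested genes (3.04%). The 18 were chosen by the same DN and NN values, so both counts are descriptions. The remaining higher ones were B3galt1, a galactosyltransferase, Sypl1, a synaptophysin-like vesicle protein, Pde8a, a cAMP phosphodiesterase, Ube2l3, a ubiquitin-conjugating enzyme, and Acot13, an acyl-CoA thioesterase. B3galt1 had 6.60, 6.95, 7.42, 7.46 and 6.79 in DN livers and 5.89, 7.05, 5.69 and 5.69 in NN livers. NN replicate 2 stood inside the DN range and the other 3 NN livers far below it, so the difference was 0.97 ± 0.251 with it and 1.29 ± 0.196 without it (limma adjusted p = 0.0159). Ube2l3 had 7.15, 7.34, 7.51, 7.40 and 7.33 in DN and 6.62, 7.27, 6.70 and 6.72 in NN, the same arrangement, with a difference of 0.66 without NN replicate 2. Differences without that array were 0.96 for Sypl1, 1.03 for Pde8a and 1.01 for Acot13.

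The remaining lower ones were Guca1b, a guanylate cyclase activator known from the retina, Hspb9, a small heat shock protein, Mical1, an actin-oxidising monooxygenase, Neurl1b, a ubiquitin ligase, and Gbx2, a homeobox factor. Guca1b had 2.11, 2.24, 2.25, 2.07 and 2.37 in DN livers, against 3.21, 2.23, 3.02 and 2.98 in NN livers, and NN replicate 2 again lay among the DN livers. Its difference was -0.65 ± 0.164 with all arrays and -0.86 ± 0.129 without that array (limma adjusted p = 0.0159). Differences without NN replicate 2 were -0.84 for Hspb9, -0.65 for Mical1, -0.75 for Neurl1b and -0.83 for Gbx2. Their levels were low, between 2.07 and 4.69, on a scale where the albumin gene averaged 11.69.

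Among genes of hepatocyte work, bile acid synthesis and transport had 6 genes higher and 0 lower at unadjusted p under 0.05, of 22 tested (27.3%, against 13.4% of all genes), with a median of 0.29. Slco1b2, a bile acid and drug uptake carrier, had 8.34, 8.13, 8.03, 8.38 and 7.83 in DN livers and 6.75, 7.55, 7.74 and 6.08 in NN livers. All DN livers were higher, by 1.11 ± 0.32. Slco1a4, another uptake carrier, differed by 1.11 ± 0.376 and Abcb4, which moves phosphatidylcholine into bile, by 0.55 ± 0.243. Scp2, a sterol carrier, had 2.07, 2.47, 4.95, 3.53 and 2.13 in DN and 1.75, 1.66, 1.24 and 1.38 in NN, so its large mean difference came with a wide spread among DN livers and with levels near the test's lower limit in NN.

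Conjugation enzymes and flavin monooxygenases had 22 positive differences among 25 tested genes, 6 higher and 1 lower at unadjusted p under 0.05 (28.0%, against 13.4% of all genes), and a median of 0.31. Fmo1, a flavin monooxygenase, had 7.70, 8.10, 7.77, 8.04 and 7.79 in DN livers and 6.99, 7.96, 7.21 and 6.87 in NN livers. NN replicate 2 lay among the DN livers and the rest of NN below them. Sult1b1, a sulfotransferase, differed by 1.17 ± 0.477, Gsta1, a glutathione transferase, by 0.54 ± 0.226 and Ugt2a3, a glucuronosyltransferase, by 1.03 ± 0.394. Cytochrome P450 genes numbered 36, of which 1 was higher and 1 lower (5.56%), at a median of 0.12. Without NN replicate 2, 8 were higher and 2 lower, where 20.8% of all genes had such a p, so the place of this list against all genes rests on that array. With array spread as a covariate 4 bile acid genes were higher and 0 lower, 0 conjugation genes were higher or lower, and 0 P450 genes were higher and 1 lower. Under that covariate the medians of the bile acid, conjugation and P450 lists were 0.16, 0.11 and 0.03. Without NN replicate 2 they were 0.38, 0.41 and 0.22, with 10 bile acid genes higher and 0 lower, and 12 conjugation genes higher and 1 lower.

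Regulators of hepatocyte genes were split. Nr5a2, a nuclear receptor of bile acid and cholesterol genes, had 6.46, 5.84, 5.91, 6.55 and 6.11 in DN livers, against 5.34, 5.87, 5.15 and 5.36 in NN livers, with a difference of 0.74 ± 0.187. A single DN liver fell just below NN replicate 2. Nr1i3, the xenobiotic receptor CAR, had 5.65, 5.80, 5.06, 6.0 and 5.08 in DN and 4.12, 5.82, 3.96 and 4.67 in NN, where NN replicate 2 again stood high, and differed by 0.88 ± 0.317. Together with Cebpb and Irx1 on the other side, 5 of the 31 tested genes of this list were higher and 4 lower (29.0%, against 13.4% of all genes), and 3 were higher and 3 lower with array spread as a covariate. The median was 0.12, but -0.02 with array spread as a covariate.

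Lipid genes varied widely between livers of a group. Srebf1, the transcription factor that drives fatty acid synthesis, had 7.89, 8.47, 6.04, 6.33 and 8.20 in DN livers, against 9.04, 8.74, 8.20 and 9.22 in NN livers. DN replicates 3 and 4 were far below every other liver of the comparison, and the other 3 lay around the lowest NN liver. The difference of -1.42 ± 0.492 (SE; limma adjusted p = 0.29) was -1.43 without NN replicate 2. Elovl6, a fatty acid elongase that SREBP1 targets, had 5.46, 5.42, 4.61, 3.51 and 6.73 in DN and 6.35, 6.66, 6.51 and 6.28 in NN. The NN livers were close together, and 4 of the 5 DN livers lay below them. Scd, the stearoyl-CoA desaturase, had 8.38, 7.59, 9.56, 6.50 and 9.34 in DN and 9.58, 8.60, 9.21 and 9.46 in NN, with a difference of -0.94 ± 0.457.

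Srebf1 and Elovl6 were the 2 lipogenic genes with an unadjusted p under 0.05 of 24 tested (8.33%, against 13.4% of all genes), both lower, and 0 were higher. The list had 4 genes higher and 3 lower without NN replicate 2, and 0 higher and 5 lower after repeated quantile normalization, so its direction depends on the setting. The other differences were 11 positive and 11 negative, and Fads2, a desaturase of long polyunsaturated fatty acids, was positive at 0.49. The list's median of -0.04 was 0.03 without NN replicate 2 and 0.02 after median centring. In fatty acid oxidation 6 genes were higher and 0 lower, of 50 tested (12.0%, close to the 13.4% of all genes), among them Ppara, the receptor that drives the pathway, at 0.50 ± 0.202, and Eci2, an enoyl-CoA isomerase, at 0.92 ± 0.309. Their median was 0.12 and turned to -0.02 with array spread as a covariate. The counts turned as well, to 1 higher and 7 lower with that covariate and 3 higher and 4 lower after repeated quantile normalization, while without NN replicate 2 there were 12 higher and 0 lower. Cpt1a, the carnitine transferase of fatty acid entry into mitochondria, had 6.58, 6.82, 6.96, 7.56 and 4.51 in DN and 4.70, 6.14, 6.21 and 5.10 in NN. DN replicate 5 was the lowest of all 9 livers, and the other 4 DN livers were all above NN.

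Genes of fat storage and export did not share a direction. Plin2, the main lipid droplet coat protein of hepatocytes, had 7.26, 7.44, 6.58, 6.98 and 7.15 in DN livers, against 7.45, 7.70, 7.37 and 8.10 in NN livers, a difference of -0.57 ± 0.332 (SE; limma adjusted p = 0.447). Plin1, the droplet coat protein of fat cells, was dim but apart, with 2.63, 2.80, 2.86, 2.96 and 2.90 in DN and 3.38, 3.02, 3.30 and 3.37 in NN. Aadac, a microsomal lipase, differed by 1.42 ± 0.429, with NN replicate 4 far below the rest at 2.88. Apob, the protein of very low density lipoprotein, had 10.23, 10.30, 10.21, 10.34 and 10.17 in DN and 10.15, 10.07, 10.03 and 9.64 in NN, a small difference of 0.28 ± 0.118 with no overlap. Mttp, which loads lipid onto that protein, differed by 0.03 ± 0.206, a sign that turned with array spread as a covariate. Of 29 tested genes 3 were higher and 1 lower (13.8%, close to the 13.4% of all genes). The median was 0.01, or -0.11 with array spread as a covariate.

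Immediate early genes, which respond within minutes to signals and to handling of tissue, lay mostly below NN. Of 25 tested, 20 differences were negative, 5 genes were lower and 0 higher at unadjusted p under 0.05 (20.0%, against 13.4% of all genes and 6.63% lower), and the median was -0.19. Junb, a subunit of the transcription factor AP-1, had 3.23, 3.25, 3.18, 3.02 and 3.03 in DN livers and 3.47, 3.44, 3.51 and 3.83 in NN livers. The groups were apart, by -0.42 ± 0.151. Klf4, a zinc finger factor, had 3.73, 3.69, 3.85, 3.57 and 3.87 in DN and 4.10, 3.93, 4.61 and 4.32 in NN, also apart, by -0.50 ± 0.166. Gadd45b, a stress sensor, differed by -0.48 ± 0.177 and Fos, the partner of Jun proteins, by -0.35 ± 0.143. The median was -0.24 without NN replicate 2 and -0.19 with array spread as a covariate, and it lay between -0.28 and -0.13 under all 5 settings examined. The 4 named here had levels between 2.41 and 4.61, and the 4051 dimmer genes as a whole had a median of -0.08, with 2840 negative differences and 293 lower.

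The list of interleukin-6 family signalling, which also holds other cytokines such as Tnf and Il1b, had 1 gene higher and 4 lower of 21 tested (23.8%, against 13.4% of all genes). With array spread as a covariate 0 were higher and 3 lower. The higher gene with all arrays was Jak2, a kinase of that signalling, at 0.43 ± 0.184, and 10 differences were positive and 11 negative. Tnf, an inflammatory cytokine, had 2.56, 2.77, 2.88, 2.65 and 2.87 in DN livers, against 3.13, 2.96, 3.15 and 3.04 in NN livers, and Socs1, a feedback inhibitor of cytokine receptors, differed by -0.34 ± 0.122. Osm, the gene of oncostatin M, differed by -0.40 ± 0.148 and Il11 by -0.31 ± 0.128. All 4 lower genes lay near the lower end of the measured range.

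Growth and fetal liver genes gave 1 gene higher and 2 lower of 20 tested (15.0%, near the 13.4% of all genes). Afp, the fetal counterpart of albumin, had 7.76, 6.10, 5.31, 6.98 and 5.99 in DN livers and 5.67, 7.38, 6.78 and 6.10 in NN livers, with wide and overlapping ranges. Igfbp7, a binding protein of the insulin-like growth factor system, differed by 0.52 ± 0.243. Lin28a, an RNA-binding protein of early development, and Cdkn1c, an imprinted inhibitor of cell division, differed by -0.36 and -0.44.

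Markers of cell types other than hepatocytes are given as mean levels on the log2 scale. The 5 measured stellate cell markers had a mean level of 4.37 to 4.72 in DN livers and of 4.15 to 4.45 in NN livers, and 1 of them, Dcn, the matrix proteoglycan decorin, had an unadjusted p under 0.05. Dcn had 3.14, 3.74, 4.20, 3.46 and 3.44 in DN and 3.0, 3.07, 2.64 and 3.0 in NN, with no overlap. The 8 Kupffer cell markers had a mean level of 4.60 to 5.39 in DN and 4.91 to 5.38 in NN, with none under that p. The 3 sinusoidal endothelial markers had 6.04 to 6.49 in DN and 5.82 to 6.62 in NN, with 1 of them, Stab2, under that p, and NN replicate 2 had the highest value of all 9 livers. The 3 measured lymphocyte markers had 1.88 to 2.02 in DN and 1.93 to 2.41 in NN, with Cd3e under that p, at the floor of the measurement and beside the higher Cxcl13 described above. The part of cell composition in the gene differences was not tested beyond these values.

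Wider lists of these cell types were counted as well. Macrophage genes had 3 higher and 1 lower of 29 tested (13.8%, near the 13.4% of all genes), with Tfec, a transcription factor of macrophages, at 3.78, 3.61, 4.21, 4.42 and 3.64 in DN livers and 3.17, 3.57, 3.09 and 2.74 in NN livers. The groups did not overlap, with a difference of 0.79 ± 0.218. Lyz2, the macrophage lysozyme, differed by 1.22 ± 0.491 and Id3, a factor that Kupffer cells need, by -0.83 ± 0.28. Endothelial genes had 3 higher and 0 lower of 27 (11.1%), led by Rspo3, an endothelial activator of Wnt signalling, at 0.66 ± 0.198. Matrix and stellate cell genes had 3 higher and 0 lower of 36 (8.33%), with Hgf, the hepatocyte growth factor made by stellate cells, at 0.61 ± 0.223. Cholangiocyte genes had 11 negative differences of 13, where 7168 of all 12912 genes and 2840 of the 4051 dimmer ones were negative. The measured cholangiocyte markers had means of 1.72 to 2.82. The list had 1 lower gene and 0 higher (7.69%, against 13.4% of all genes and 8.47% of the dimmer ones). This was Cldn4, a tight junction protein, at -0.37 ± 0.167. Apart from the matrix list (0.13) and the cholangiocyte list (-0.17), whose signs held under 5 settings, these medians were within 0.03 of 0 and changed sign between settings.

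Over the 33 lists, 18 medians were positive and 15 negative with all arrays. Under 4 other settings (without NN replicate 2, array spread as a covariate, repeated quantile normalization and median centring), 7 lists stayed positive, 6 stayed negative and 20 changed sign at least once. The 7 were choline oxidation and the methionine cycle, mRNA deadenylation, membrane traffic, cytochrome P450, conjugation, bile acid and matrix genes. The 6 were nuclear lamina, interleukin-6 family, cholangiocyte, erythroid, ribosomal protein and immediate early genes. These signs are set against 0, while the median of all tested genes itself moved from -0.03 to 0.03 with median centring. Some medians that kept their sign came near 0, such as matrix genes (0.02) and cytochrome P450 (0.03) with array spread as a covariate. The settings reuse the same arrays and are not independent of each other.

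**Figure D5:**
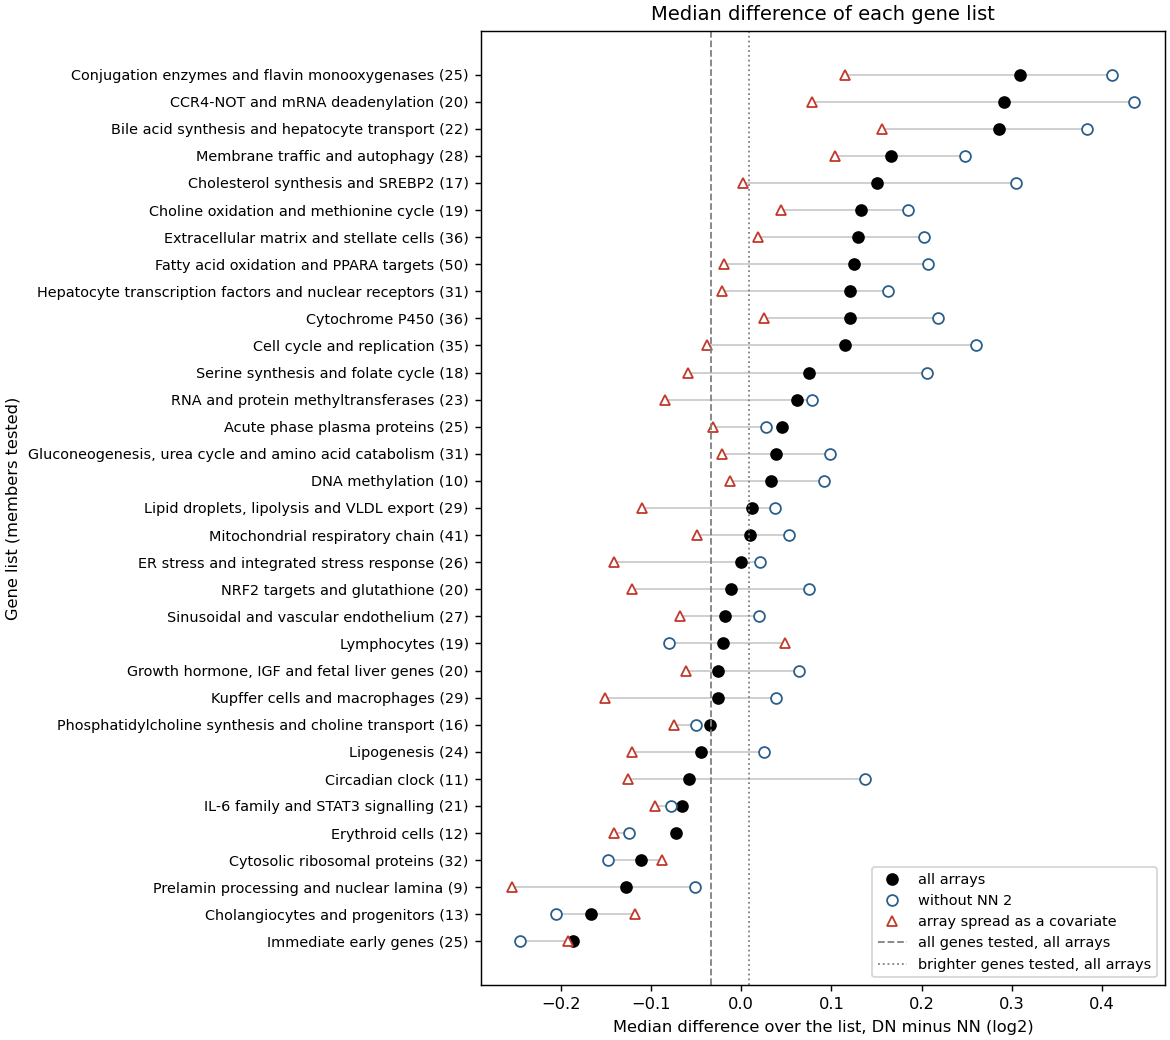
Median DN minus NN difference (log2) of each of 33 gene lists with all arrays (filled circle), without NN replicate 2 (open circle) and with array spread as a covariate (triangle); numbers in brackets are members tested, and the lines mark the median of all genes tested (-0.03) and of the brighter ones (0.01). Conjugation, mRNA deadenylation and bile acid genes lie farthest to the right with all arrays, and the immediate early genes farthest to the left.

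The same pregnancy contrast under a deficient lactation diet, DD minus ND, shares no array with DN minus NN. Mat2a had 6.56, 7.0, 6.34 and 6.68 in DD livers and 6.12, 6.34, 6.75 and 6.64 in ND livers, a difference of 0.18 ± 0.197 (SE) where DN minus NN gave -0.89. The difference between the contrasts, (DD minus ND) minus (DN minus NN), was 1.07 ± 0.271 (limma adjusted p = 0.114). Chpf had the largest statistic for that test among the genes named here, with 2.74, 2.84, 3.09 and 2.73 in DD, 2.44, 2.54, 2.47 and 2.08 in ND and a difference between contrasts of 1.04 ± 0.183 (limma adjusted p = 0.114). Phaf1 gave -1.24 ± 0.239, Trpm7 -1.82 ± 0.374, Zmpste24 -1.12 ± 0.242, Cnot6l -1.16 ± 0.256 and Kcns2 0.98 ± 0.217. None passed the test with all arrays.

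Across genes, the difference between the contrasts called 0 of 12912 genes (0.0%), with a smallest adjusted p of 0.114, and 2580 had an unadjusted p under 0.05 (20.0%). Without NN replicate 2 it called 639 (4.95%), Mat2a among them (limma adjusted p = 0.0269). With array spread as a covariate it called 0, with all arrays (smallest adjusted p 0.985) and without NN replicate 2 (0.713). Of the 24 leading genes 20 had opposite signs in both contrasts, as had 84.4% of the 1732 genes at unadjusted p under 0.05 and 67.9% of all tested genes. Array spread averaged 1.67 ± 0.052 in DD and 1.74 ± 0.041 in ND (SD, n = 4 each), against 1.75 in DN and 1.70 in NN. Spread partly follows the diet groups in both contrasts, so spread and diet cannot be told apart here. The part of spread in these signs and calls was not tested.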

How the data were processed

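Total RNA of 17 rat livers from separate pups was measured on 1 Affymetrix array each, per the labels. The deposited values are log2 signals that the authors made with RMA, which corrects background, normalises arrays and summarises probe sets; RMA and affy are named in the submitters' processing notes, and versions are not given in the sources used here. The base of the logarithm was taken as 2, as RMA returns it. They are relative signals without read depth, and the number of arrays limits their precision. No label gives a batch or scan date.

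Of 36685 probe sets, 14824 had 1 symbol, 829 several and 21032 none in the platform's table, and 14670 matched a RefSeq gene table (GRCr8) by Entrez number. For 234 of 14557 genes the brightest of several probe sets was used. Genes above the 25th percentile (1.73) in at least 4 arrays were tested, 12912 in all. The fixed genes numbered 28, of which 18 were tested; the others, among them Ahcy, Dnmt1 and Fasn, had no probe set of 1 symbol under that name and were not analysed here.

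The limma functions lmFit and eBayes (version 3.58.1, in R 4.3.3) estimated 4 group means from 17 arrays, with 13 residual degrees of freedom and Benjamini-Hochberg adjustment over all 12912 genes. The fit was tested on simulated data. Genes named are the 12 of smallest p in each direction, those called, 28 fixed genes and up to 4 of each of 33 lists by moderated statistic. Of 1128 distinct symbols in the lists, 797 were measured and 785 tested. The genes, lists and the comparison were chosen with earlier results of these data known. Alternatives were other filters, probe set means, trended robust variance, array weights, renormalization, median centring, array spread as a covariate, a replicate block, a fit of DN and NN alone and leaving out each array. Added after the values were seen were a fit without NN replicate 2 with array spread as a covariate, the same with renormalization, and a fit of all probe sets. Deviations of same-numbered DN and NN arrays from their group means correlated at 0.214, 0.186, 0.377 and -0.246. Arrays of different numbers were not compared, so these values cannot tell whether replicate numbers pair livers. The labels give no pairing, and the main fit used none.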

Additional observations from a re-analysis of the deposited data

Results flagged for a closer look

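In 4 of 108 groups examined (3.7%), 1 liver stood apart from the others of its group by Dixon's test. That test flags about 1 in 20 groups by chance where genes are not chosen by the same values. B3galt1 in NN replicate 2 was 7.05, where the other NN livers had 5.69 to 5.89. Ube2l3 in NN replicate 2 was 7.27, where the others had 6.62 to 6.72. Both genes were examined because they were called when that array was left out. That choice favours genes in which NN replicate 2 stands apart, so these 2 flags are no separate result. Gnmt in NN replicate 4 was 6.45, below the other NN livers at 7.53 to 7.75. Dnmt3b in DN replicate 4 was 3.40, above the other DN livers at 2.95 to 3.04.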

How the results depend on the processing

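No alternative with all arrays called a gene for DN minus NN, including no filter, a stricter filter, array weights, a fit of DN and NN alone, an adjusted p under 0.1, and all 29730 testable probe sets (smallest adjusted p 0.252, 3384 at unadjusted p under 0.05). Leaving out single arrays gave 0 to 18 calls, 429 to 1381 higher and 476 to 1310 lower genes at unadjusted p under 0.05, and 0 to 639 calls for the difference between contrasts. Without NN replicate 2 and renormalized there were 19 and 297 calls. Without it and with array spread as a covariate there were 384 higher genes. The covariate with all arrays gave 399 higher and 533 lower, median centring 497 lower and the stricter filter 562 lower. Replicate numbers were not taken to pair the samples. With the replicate block there were 0 calls, 1013 higher and 895 lower. Over 50 leading, called or fixed genes and their settings, 1374 of 1449 kept direction and side of the threshold, 35 (in 19 genes) passed it and 40 (in 8 genes) changed sign; the cause was not tested. All 8 had differences within 1 SE of 0. Gnmt was -0.048 after repeated normalization, -0.12 with the covariate, -0.13 with the covariate and without NN replicate 2, and -0.25 to 0.25 over single removals. Bhmt was 0.031 with array weights, 0.061 with centring, 0.00032 with the covariate and -0.17 to 0.14 over removals. Chdh was 0.049 with the replicate block and -0.29 to 0.049 over removals. Pcyt1a was 0.0049 with centring and -0.14 to 0.010 over removals. Cbs was -0.012 after repeated normalization, and without NN replicate 2 -0.038 with the covariate and -0.048 renormalized. Dnmt3b was -0.037 to 0.10 over removals. Afp was 0.32 with array weights, 0.0026 with centring, 0.051 with the replicate block, 0.055 without NN replicate 2 after renormalization and -0.39 to 0.24 over removals. Mttp was -0.12 after repeated normalization, -0.26 with the covariate, -0.06 to 0.16 over removals, and without NN replicate 2 -0.40 with the covariate and -0.050 renormalized.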

Other observations

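Single genes of several further gene groups are given here. In the circadian clock, Cry1, a repressor of the clock, had 3.74, 4.14, 3.61, 3.88 and 3.91 in DN livers, against 5.10, 4.80, 4.29 and 4.31 in NN livers, with all DN livers lower and a difference of -0.77 ± 0.262 (SE). Clock, the activating partner, differed by 0.82 ± 0.312, while Dbp and Per2, which swing widely over a day, ranged from 4.20 to 7.36 and from 3.00 to 5.59 in DN livers, and from 4.22 to 5.82 and from 4.49 to 6.01 in NN livers. No label states the hour of tissue collection. Cat, the catalase gene, differed by 0.48 ± 0.155. Nfe2l2, the factor NRF2, had 6.40, 6.56, 6.59, 6.85 and 6.61 in DN and 6.35, 6.32, 6.07 and 5.94 in NN. Its groups were only just apart, and the difference was 0.43 ± 0.217 (limma unadjusted p = 0.0623). Over all tested genes, the DN livers lay wholly above NN in 1.12% and wholly below in 1.92%.

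In the respiratory chain 7 of 41 tested genes were higher and 1 lower at unadjusted p under 0.05 (19.5%, against 13.4% of all genes), led by Ndufc2, a complex I subunit, at 0.61 ± 0.186, with a median of 0.01 that was -0.05 with array spread as a covariate. Ribosomal protein genes had 0 higher and 3 lower of 32 (9.38%, below the 13.4% of all genes), or 1 higher and 8 lower without NN replicate 2, led by Rps6 at -0.58 ± 0.192, with a median of -0.11. Amino acid catabolism and gluconeogenesis had 5 genes higher and 0 lower of 31 (16.1%). Kmo, an enzyme of tryptophan breakdown, had 7.28, 7.47, 7.27, 7.64 and 7.10 in DN livers and 6.85, 7.10, 6.63 and 6.43 in NN livers, with a difference of 0.60 ± 0.152, and Tdo2, the first enzyme of that route, differed by 0.49 ± 0.164. Cell cycle genes had 3 higher and 0 lower of 35, acute phase genes 1 and 0 of 25, cholesterol synthesis genes 1 and 0 of 17, stress response genes of the endoplasmic reticulum 2 and 2 of 26, glutathione genes 2 and 0 of 20, clock genes 1 and 1 of 11, erythroid genes 0 and 1 of 12, and lymphocyte genes 0 and 2 of 19, shares between 4.0% and 18.2%. None of these genes passed an adjusted p under 0.05 in limma.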
